A study of Arabidopsis thaliana with 27 samples.

Results

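Wild-type Arabidopsis thaliana roots given 400 µM indole-3-carbinol (I3C) were compared with wild-type roots given 200 µM, across all genes that could be tested. The members were the 6 libraries labelled Col_400 (replicates 1, 4 and 5) and Col_200 (replicates 1, 4 and 5), out of 27 libraries in the series. All were mRNA libraries from roots of 10-day-old seedlings in liquid culture, with 20 seedlings a treatment, given I3C or its solvent DMSO for 2 h except where stated. Col_400 and Col_200 are Col-0 seedlings, the wild type, in 400 and 200 µM I3C. ICT1-2_400 and ICT1-2_200 are the same doses in line ICT1-2, labelled as overexpressing the ribosomal protein S30 from the 35S promoter, and Col_NT is Col-0 in DMSO. Each of these groups has 3 libraries. The fit, which estimates each gene's spread from 26 libraries, also took in 2 of ICT1-2 in DMSO (ICT1-2_NT), 3 each of the other line labelled as overexpressing S30 in 200 µM I3C and in DMSO, and 3 of Col-0 roots 8 h after leaf wounding (Col_w). The summed level of the 3 S30 genes was 8023 to 8724 normalized counts in ICT1-2_400 and 8326 to 10192 in ICT1-2_200, against 8368 to 11390 in Col_400 and 9302 to 14438 in Col_200. It was thus not raised in the libraries labelled ICT1-2, which are used here by their label only. The labels do not say whether replicates were grown apart, so a p-value here reflects only how these libraries vary, and that variation may be technical.

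I3C is a breakdown product of indole glucosinolates, defence compounds that plants of the cabbage family release when tissue is damaged. In Arabidopsis roots it is known to stop growth and to interfere with auxin signalling at the receptor TIR1. Reactive plant defence compounds are also known to induce cytosolic chaperones and detoxifying enzymes such as glutathione transferases. The comparison asks which transcripts differ between a moderate and a higher dose of the same compound.

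Few genes passed between the doses. Those higher at 400 µM included the metal reductase gene FRO4, the cytokinin oxidase gene CKX4, several membrane and C2-domain protein genes and the histone chaperone gene SPT6. Those lower at 400 µM included the peptide gene CLE2, the replication gene CDC45, the H2AX histone gene HTA3 and the cell surface gene AGP18. Of 21180 genes tested, 26 passed an adjusted p under 0.05 (limma on log2 of the normalized count plus 1, Benjamini-Hochberg over all tested genes), a share of 0.123%. The 19 that rose at 400 µM were 0.0897% of the genes tested and the 7 that fell were 0.0331%. At an unadjusted p under 0.05 there were 2417 genes, or 11.4%. A weighted fit on the recovered reads (voom) called 29 genes, 28 higher and 1 lower, and 18 of them were among the 26. Each dose was far from DMSO: 7580 genes (35.8%) passed between Col_400 and Col_NT, 3900 of them higher (18.4% of those tested) and 3680 lower, and 6120 (28.9%) between Col_200 and Col_NT, 15% higher and 13.9% lower. Both use the same DMSO libraries.

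The libraries of replicate 1 stood apart. Col_400 replicate 1 and Col_200 replicate 1 had a Spearman correlation of 0.986 across genes, above every pair of libraries within Col_400 (0.974 to 0.982) or within Col_200 (0.963 to 0.975). Reads assigned to genes ran from 11003754 to 16076926 a library in Col_400 and from 9503924 to 13620963 in Col_200, so that 3 reads were 0.187 to 0.273 CPM (counts scaled to a common library total) in Col_400 and 0.22 to 0.316 CPM in Col_200. Ribosomal RNA genes took 0.811 to 2.15% of reads in Col_400 and 0.535 to 3.42% in Col_200. The summed level of 21 photosynthesis genes, markers of shoot tissue, was 3917 to 5682 normalized counts in Col_400 and 4047 to 11982 in Col_200, highest in replicate 4 of Col_400 and in replicate 1 of Col_200, and none of them was at 0 in these libraries. For 17 root hair markers it was 1857 to 1932 in Col_400 and 1042 to 3555 in Col_200. Without replicate 1 of both groups 271 genes passed (1.28% of those tested), 153 higher (0.722%) and 118 lower (0.557%) at 400 µM, and all 26 genes of the full comparison were among them. Without Col_200 replicate 1 alone 309 passed, and without Col_400 replicate 1 alone 164.

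The 250 bases before the annotated start are shown for the gene with the largest positive difference on the log2(count + 1) scale (AT5G24220, chr5:8225611-8225860), the gene with the smallest adjusted p (CLE2, chr4:10211327-10211576), and a pair that rose in both lines (AT2G36690, chr2:15379410-15379659, and CAR9, chr1:26699071-26699320). All are on the plus strand of RefSeq's TAIR10.1 assembly. Capitals mark matches, on either strand, to ACGTG (the core of the abscisic acid response element), GAANNTTC (heat shock element), TGACG (the as-1 core bound by TGA factors), TGTCTC (auxin response element) and TTGAC (the W-box core bound by WRKY factors). TTGAC and TGACG overlap where a promoter has TTGACG.
AT5G24220: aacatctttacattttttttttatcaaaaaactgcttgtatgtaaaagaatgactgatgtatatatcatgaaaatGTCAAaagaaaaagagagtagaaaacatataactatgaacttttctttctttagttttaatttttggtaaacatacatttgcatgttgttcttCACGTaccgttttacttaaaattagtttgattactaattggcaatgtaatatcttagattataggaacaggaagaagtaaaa
AT2G36690: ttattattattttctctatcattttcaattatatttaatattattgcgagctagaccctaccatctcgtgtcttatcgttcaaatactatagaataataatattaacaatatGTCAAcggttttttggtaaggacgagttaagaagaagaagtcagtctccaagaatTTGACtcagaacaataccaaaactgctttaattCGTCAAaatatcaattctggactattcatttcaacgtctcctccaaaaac
CAR9: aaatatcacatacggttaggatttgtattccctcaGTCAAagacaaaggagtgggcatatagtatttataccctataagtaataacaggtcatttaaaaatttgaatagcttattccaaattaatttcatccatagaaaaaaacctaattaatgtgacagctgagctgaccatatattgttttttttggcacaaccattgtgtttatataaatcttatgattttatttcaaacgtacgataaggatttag
CLE2: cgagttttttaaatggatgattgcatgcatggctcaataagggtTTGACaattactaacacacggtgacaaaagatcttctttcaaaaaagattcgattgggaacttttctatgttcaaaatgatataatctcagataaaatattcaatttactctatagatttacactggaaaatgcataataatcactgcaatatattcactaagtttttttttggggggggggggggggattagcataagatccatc
In the promoters of the 19 genes that rose, TTGAC was present in 13 (68.4%), ACGTG in 6 (31.6%), TGACG in 4 (21.1%), TGTCTC in 4 (21.1%) and GAANNTTC in 1 (5.26%). Over 21041 promoters of tested genes the shares were 45.6% for TTGAC, 19.2% for TGACG, 10.7% for TGTCTC and 9.49% for GAANNTTC, and 4970 of them held ACGTG. Of the 7 genes that fell, 4 held TTGAC, 2 held TGACG and 1 held ACGTG. A match is a run of letters and not a bound site.

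Among signalling genes, CLE2 (AT4G18510, chromosome 4, 10211577 to 10212452, plus strand) encodes a small secreted peptide of the CLAVATA3 family. It had 16.2, 13.9 and 11.5 normalized counts in Col_400 replicates 1, 4 and 5, against 53.0, 68.3 and 53.2 in Col_200. The groups lay well apart, and both were below DMSO roots, at 233 ± 30.9 (SD, n = 3). CLE2 fell 3.98-fold on the log2(count + 1) scale used for all differences here (log2 difference -1.99, SE 0.23, 95% interval -2.46 to -1.53, adjusted p = 0.000182). In bulk roots, fewer cells of a type and less RNA per cell cannot be told apart. AtRLP20 (AT2G25440), a receptor-like protein gene, had 3 reads over the Col_400 libraries and 27 over Col_200. That was 9.66-fold lower in Col_400 (95% interval 2.97 to 49.8, counting error only), and limma gave an adjusted p of 0.0253.

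CKX4 (AT4G29740, chromosome 4, 14566183 to 14569380, plus strand) encodes a cytokinin oxidase, which breaks down cytokinins. It had 28.6, 85 and 83.2 normalized counts in Col_400 replicates 1, 4 and 5, against 10.8, 22.1 and 9.67 in Col_200. Replicate 1 was the lowest Col_400 library, yet lay above every Col_200 library. The log2 difference was 2.07 (SE 0.36, adjusted p = 0.0171), and DMSO roots were at 87.3 ± 28.1.

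CAR9 (AT1G70790, chromosome 1, 26699321 to 26702544, plus strand) belongs to the C2-domain proteins that, in Arabidopsis, bring abscisic acid receptors to the plasma membrane. It had 389, 532 and 483 normalized counts in Col_400 replicates 1, 4 and 5, against 249.8, 214 and 227 in Col_200, and rose by 1.01 on the log2 scale (SE 0.15, adjusted p = 0.00326). Against DMSO, at 229 ± 27.9, the log2 difference was 1.02 at 400 µM (adjusted p = 7.77e-06) and 0.01 at 200 µM (adjusted p = 0.965). Of 7 measured CAR genes CAR9 alone passed, where 0.123% of all tested genes did, and 4 lay above 0, where 51.3% of all tested genes did. The family's median log2 difference was 0.48, and ran from 0.14 (without Col_200 replicate 5) to 0.66 with a library left out. A further pair of membrane-anchored C2-domain protein genes rose. SYTF (AT3G18370) averaged 912 ± 66.4 normalized counts in Col_400 and 543 ± 53.4 in Col_200 (log2 difference 0.75, adjusted p = 0.0296). NTMC2T6.1 (AT1G53590) averaged 1263 ± 124 normalized counts in Col_400 and 783 ± 50.0 in Col_200 (0.69, adjusted p = 0.0229).

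Several genes that rose encode enzymes or transporters. FRO4 (AT5G23980, chromosome 5, 8097978 to 8101330, minus strand) encodes a reductase of ferric and cupric ions at the root surface. It had 169, 308 and 279.7 normalized counts in Col_400 replicates 1, 4 and 5, against 85.4, 96.0 and 41.1 in Col_200. All Col_400 libraries were above all Col_200 libraries, and every one was below the DMSO mean of 815 ± 244. The log2 difference between doses was 1.79 (SE 0.32, 95% interval 1.14 to 2.45, adjusted p = 0.0177). FRO4 has a close tandem copy, ATFRO5 (AT5G23990), at 10.7 ± 7.46 normalized counts in Col_400 and 5.13 ± 5.58 in Col_200, and reads shared by the copies make both values uncertain.

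AT5G24220 (chromosome 5, 8225861 to 8227782, plus strand), annotated as related to class 3 lipases, had 48.7, 53.0 and 77.5 normalized counts in Col_400 replicates 1, 4 and 5, against 2.16, 5.54 and 10.9 in Col_200. The groups did not overlap. The rise was 9.50-fold (log2 difference 3.25, SE 0.47, 95% interval 2.27 to 4.22, adjusted p = 0.00326), to a level near the 44.9 ± 11.2 of DMSO roots. AT2G36690, annotated as an oxygenase dependent on 2-oxoglutarate and iron, had 1039, 819 and 850.5 normalized counts in Col_400 replicates 1, 4 and 5, against 409.8, 391 and 209 in Col_200 (log2 difference 1.47, SE 0.27, adjusted p = 0.0249). Its DMSO level, 555 ± 48.7, lay between the doses.

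AT1G67300, annotated in the major facilitator family of membrane transporters, had 1855, 1682 and 1489 normalized counts in Col_400 replicates 1, 4 and 5, against 874, 1006 and 619.9 in Col_200. Every library at 400 µM was above every library at 200 µM (log2 difference 1.03, SE 0.16, adjusted p = 0.00363). GDPD1 (AT3G02040), a glycerophosphodiester phosphodiesterase of lipid and phosphate recycling, averaged 570.1 ± 197 normalized counts in Col_400 and 257 ± 51.7 in Col_200 (1.11, adjusted p = 0.0291). SSL12 (AT1G74020), named for its likeness to strictosidine synthase, averaged 2322 ± 437 normalized counts in Col_400 and 1256 ± 357 in Col_200 (0.91, adjusted p = 0.0244). Smaller rises were seen in other enzyme genes. The log2 difference was 0.84 for the nudix hydrolase NUDT9 (AT3G46200, adjusted p = 0.0473), 0.84 for the ubiquitin hydrolase family gene AT4G22350 (0.0291) and 0.91 for the alpha/beta hydrolase family gene AT2G18245 (0.0117).

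Genes of the nucleus moved both ways. CDC45 (AT3G25100) encodes part of the helicase that opens DNA at replication forks. It had 75.4, 55.7 and 33.0 normalized counts in Col_400 replicates 1, 4 and 5, against 110.3, 144 and 128 in Col_200. All Col_400 libraries were below all Col_200 libraries, and CDC45 fell by 1.27 on the log2 scale (SE 0.25, adjusted p = 0.0407), while DMSO roots were at 111 ± 7.34. HTA3 (AT1G54690), a gene for the histone variant H2AX that is phosphorylated at DNA breaks, averaged 422 ± 18.8 normalized counts in Col_400 and 714 ± 102 in Col_200 (log2 difference -0.75, SE 0.14, adjusted p = 0.0244). The other H2AX gene, HTA5 (AT1G08880), was at 1845 ± 28.5 in Col_400 and 2002 ± 174 in Col_200 (adjusted p = 0.723). The copies are alike, so reads may be split between them.

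SPT6 (AT1G65440), a histone chaperone that travels with RNA polymerase II, averaged 2789.7 ± 366 normalized counts in Col_400 and 1798 ± 224 in Col_200 (log2 difference 0.63, SE 0.13, adjusted p = 0.0473), the smallest difference of the 26. SLK2 (AT5G62090), a transcriptional adaptor of the SEUSS family, rose by 0.69 (adjusted p = 0.0458). AT1G26590, a C2H2 zinc finger gene, had 1 read over the Col_400 libraries and 38 over Col_200, which was 40.8-fold lower in Col_400 with a counting interval of 6.89 to 1653 (adjusted p = 0.0177).

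The other genes have less well known roles. MEE50 (AT4G00231), annotated as an armadillo repeat protein, had 1402, 1458 and 1294 normalized counts in Col_400 replicates 1, 4 and 5, against 617, 724 and 819 in Col_200 (log2 difference 0.95, SE 0.14, adjusted p = 0.00326). The doses did not overlap and both were above DMSO, at 366 ± 9.13. The pentatricopeptide repeat gene AT4G17616 rose by 1.30 (adjusted p = 0.012) and LCV1 (AT2G20130), annotated without a function, by 0.95 (adjusted p = 0.0366). AT5G23700, a coiled-coil protein gene, had 29 reads over the Col_400 libraries and 2 over Col_200, 13.5-fold higher in Col_400 with a counting interval of 3.42 to 117 (adjusted p = 0.00106). AGP18 (AT4G37450), a cell surface arabinogalactan protein, averaged 150.2 ± 48.9 normalized counts in Col_400 and 353 ± 66.2 in Col_200 (-1.26, SE 0.24, adjusted p = 0.0328). AT1G02470, of the polyketide cyclase family, had 3 reads in Col_400 and 29 in Col_200, 10.4-fold lower in Col_400 with a counting interval of 3.22 to 53.2 (adjusted p = 0.0473). Its annotated end overlaps its neighbour AT1G02475, so its reads are uncertain.

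**Figure D1:**
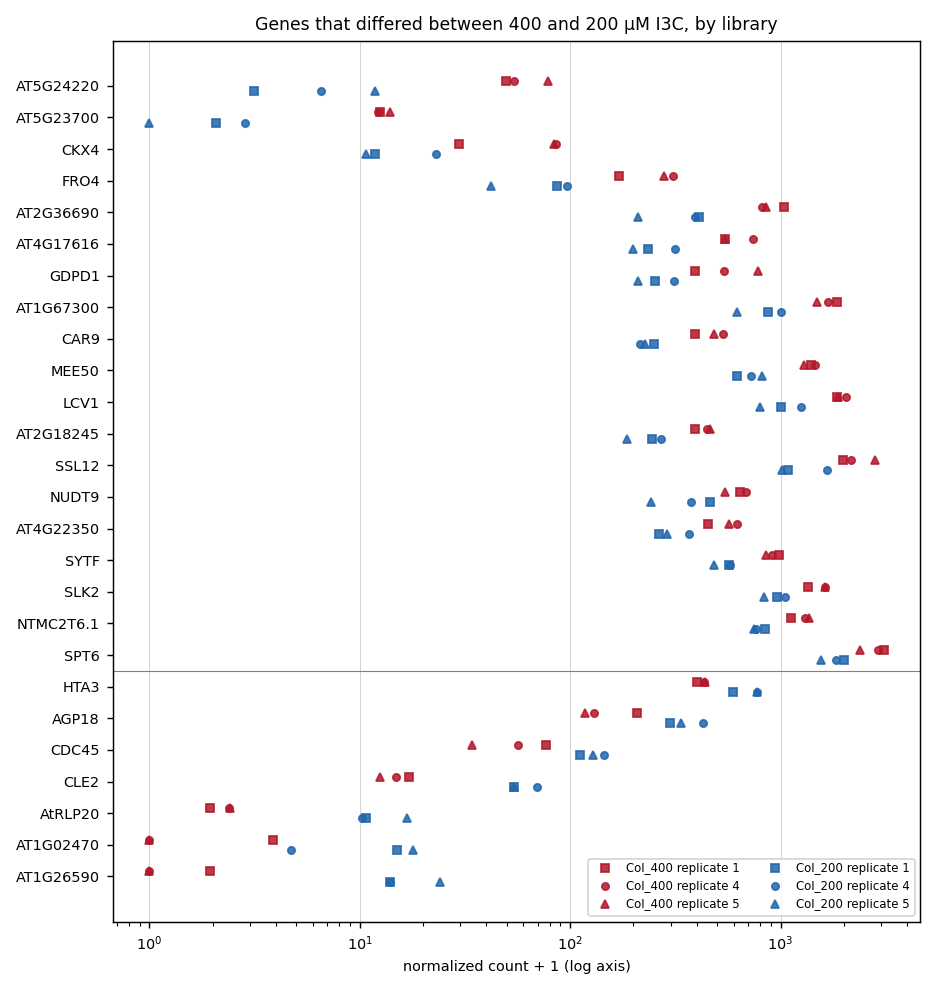
Normalized counts plus 1 (log axis) of the 26 genes that differed, for each Col_400 library (red) and each Col_200 library (blue), with a marker shape for each replicate number. The 19 genes above the grey line were higher in Col_400 and the 7 below it lower, and the groups overlapped for none of the 26.

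For all 26 genes the Col_400 and Col_200 libraries did not overlap, as was the case for 2010 tested genes, or 9.49% (5.38% higher and 4.11% lower). How firmly they were called varied. Under voom 8 of the 26 missed the threshold, at an adjusted p of 0.057 for CLE2, 0.11 for FRO4, 0.116 for AT1G26590, 0.157 for CDC45, 0.173 for AGP18, 0.189 for AT1G02470, 0.253 for CKX4 and 0.285 for AtRLP20. With each of the 6 libraries left out in turn, CLE2, AT5G23700, AT5G24220, CAR9, MEE50 and AT1G67300 passed every time, and the other 20 missed the threshold at least once. Of the 26, 7 passed without Col_400 replicate 5, 6 without Col_400 replicate 4, 6 without Col_200 replicate 5 and 20 without Col_200 replicate 4. With the 6 libraries alone in the fit limma called 0 genes. There 1058 of 21180 genes had an unadjusted p under 0.05, against 2417 (11.4%) in the main fit. The calls thus rest on a spread estimated from all 26 libraries with values. Without the wounded libraries it called 26, of which 23 were the same genes. All 26 kept their direction under every alternative run. The authors' deposited table lists 24 of the 26 at an adjusted p under 0.05, and 115 genes in all (0.531% of 21669), 84 higher (0.388%) and 31 lower (0.143%).

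Set beside DMSO, the 26 genes followed different courses, given as means since the comparisons share libraries. In 14 of the 19 that rose, the mean at 200 µM was above DMSO and 400 µM lay further up. For some of the 14 the step from DMSO to 200 µM was not called. Its limma adjusted p was 0.242 for GDPD1, 0.147 for AT2G18245 and 0.11 for SYTF. CAR9 was level with DMSO at 200 µM, at 230 ± 18.0 against 229 ± 27.9 (adjusted p = 0.965). LCV1 averaged 349 ± 53.6 normalized counts in DMSO, 1015 ± 225 at 200 µM and 1926 ± 104 at 400 µM, and SSL12 463 ± 40.6, 1256 ± 357 and 2322 ± 437. The other 5 (AT5G24220, AT5G23700, CKX4, FRO4 and AT2G36690) were below DMSO at 200 µM and higher again at 400 µM, and they hold the 5 largest positive differences on the log2(count + 1) scale. Of the 7 that fell, CLE2, HTA3, AGP18 and AtRLP20 went down in steps, with CLE2 at 233 ± 30.9 in DMSO, 58.1 ± 8.78 at 200 µM and 13.9 ± 2.38 at 400 µM. CDC45, AT1G02470 and AT1G26590 had means above DMSO at 200 µM and below it at 400 µM. AtRLP20, AT1G02470 and AT1G26590 had few reads, so their courses are uncertain. AT1G02470 was at 14.1, 3.69 and 16.9 normalized counts in Col_200 replicates 1, 4 and 5, on both sides of its DMSO mean of 6.08.

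**Figure D2:**
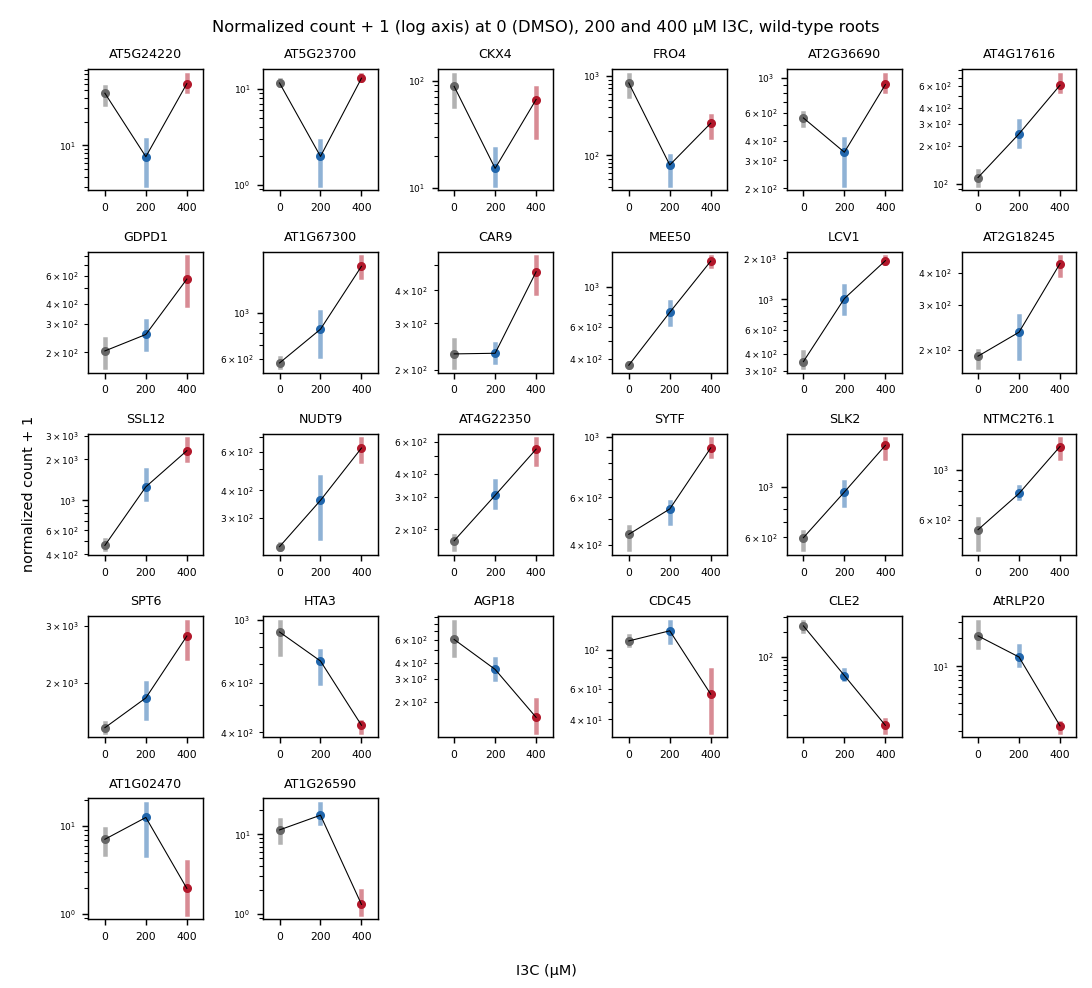
Normalized counts plus 1 (log axis) of the 26 genes in wild-type roots at 0 (DMSO), 200 and 400 µM I3C. Points are means of 3 libraries and bars run from the lowest to the highest library. The first 5 panels dip at 200 µM. The next 14 are highest at 400 µM, with CAR9 level from 0 to 200 µM. The last 7 are lowest at 400 µM.

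Just outside the threshold stood FRO2 (AT1G01580), the main ferric reductase of iron uptake in Arabidopsis roots. It had 834, 1501 and 1156 normalized counts in Col_400 replicates 1, 4 and 5, against 306, 378 and 119.6 in Col_200. The groups did not overlap (log2 difference 2.23, SE 0.46, adjusted p = 0.052), and both were below DMSO, at 2556 ± 1083. The RNA recognition motif gene RRC1 (AT5G25060) had a difference of 0.61 (adjusted p = 0.052) and the exostosin family gene AT5G19670 one of -1.27 (0.0541). Just inside were SPT6, NUDT9 and AT1G02470, each at 0.0473.

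Among genes that did not pass but whose groups did not overlap, with a mean of at least 5 CPM, the 5 with the largest positive differences were FRO2, ATHB-12, AT3G02480, WRKY66 and AT1G73120. ATHB-12 (AT3G61890), a homeobox factor induced by drought and abscisic acid, had 125, 163 and 181 normalized counts in Col_400 replicates 1, 4 and 5, against 77.8, 35.1 and 30.2 in Col_200. The difference was 1.801 (adjusted p = 0.105), and without replicate 1 of both groups it was 2.36 (adjusted p = 0.0292). AT3G02480, a late embryogenesis abundant protein gene, had 1.77 (adjusted p = 0.21), WRKY66 1.76 (0.444) and the F-box family gene AT1G73120 1.68 (0.228). The 5 with the largest negative differences were CYP82C2 (-1.40, adjusted p = 0.379), LBD4 (-1.36, 0.174), ABCB14 (-1.28, 0.25), BGLU27 (-1.27, 0.466) and AT5G19670. LBD4, a LOB-domain transcription factor, averaged 50.0 ± 33.2 normalized counts in Col_400 and 115 ± 26.2 in Col_200, against 401 ± 89.5 in DMSO.

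The authors' deposited table also calls genes that limma did not. AT4G33905, of the Mpv17 family of peroxisomal membrane proteins, has a log2 fold change of 1.47 in the authors' deposited table (adjusted p = 4.04e-06). It averaged 1557 ± 286 normalized counts in Col_400 and 551 ± 174 in Col_200, and limma gave 1.53 (adjusted p = 0.0734). AT4G15390, an acyltransferase of the HXXXD type, had 78.3, 496 and 387 normalized counts in Col_400 replicates 1, 4 and 5, against 63.8, 94.1 and 79.8 in Col_200. Col_400 replicate 1 lay within the Col_200 range, and the adjusted p was 0.105, or 0.000174 without replicate 1 of both groups. AT1G53240 (mMDH1), a mitochondrial malate dehydrogenase, averaged 5304 ± 96.8 normalized counts in Col_400 and 7554 ± 581 in Col_200 (-0.51, adjusted p = 0.0941). NAC089 (AT5G22290), a NAC transcription factor, had a difference of 0.72 (adjusted p = 0.0639).

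The heat shock and detoxification lists, highest above DMSO at each dose, had similar medians at both doses. The 25 heat shock genes include those for chaperones, which hold or refold damaged proteins, and for transcription factors such as HSFA2. Their median log2 difference from DMSO was 8.01 at 200 µM and 7.86 at 400 µM. Of the 25, 24 were called higher at each dose, against 15% of all tested genes at 200 µM and 18.4% at 400 µM. Between doses 0 of 25 passed, 0 had an unadjusted p under 0.05, and the median was -0.01, against 0.01 over all tested genes. MED37C (AT3G12580), an inducible HSP70 gene, had 60926, 47280.2 and 52519 normalized counts in Col_400 replicates 1, 4 and 5, against 52048, 68679.8 and 41888 in Col_200. The libraries of the doses interleaved (log2 difference 0.00, 95% interval -0.66 to 0.67). MED37E (AT5G02500), the constitutive HSC70-1, had a difference of -0.10 (-0.51 to 0.31). For 20 of the 25 the interval lay within -1 to 1 on the log2 scale, which was so for 14621 of all tested genes, or 69%. The median interval over all genes reached 0.456 to either side of its estimate.

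The 35 measured detoxification genes had medians of 2.91 above DMSO at 200 µM and 2.96 at 400 µM, with 29 called higher at each. Between doses 0 of 35 passed, and the median was 0.13 (0.0056 without Col_200 replicate 5). Of the 35 intervals 20 lay within -1 to 1, a lower share than the 69% over all tested genes. GSTU24 (AT1G17170), a glutathione transferase of the tau class, averaged 51955 ± 3633 normalized counts in Col_400 and 47214 ± 6823 in Col_200 (log2 difference 0.15, 95% interval -0.35 to 0.64). GSTF8 (AT2G47730), of the phi class, averaged 55375 ± 6890.2 normalized counts in Col_400 and 62053 ± 13005 in Col_200 (-0.15, -0.58 to 0.28). Of 40 genes for subunits of the 26S proteasome, which degrades tagged proteins, 27 were called higher than DMSO at 200 µM and 24 at 400 µM, again against 15% and 18.4% of all tested genes. Between doses 0 of the 40 passed, their median was 0.03 and 39 intervals lay within -1 to 1, against 69% over all tested genes.

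**Figure D3:**
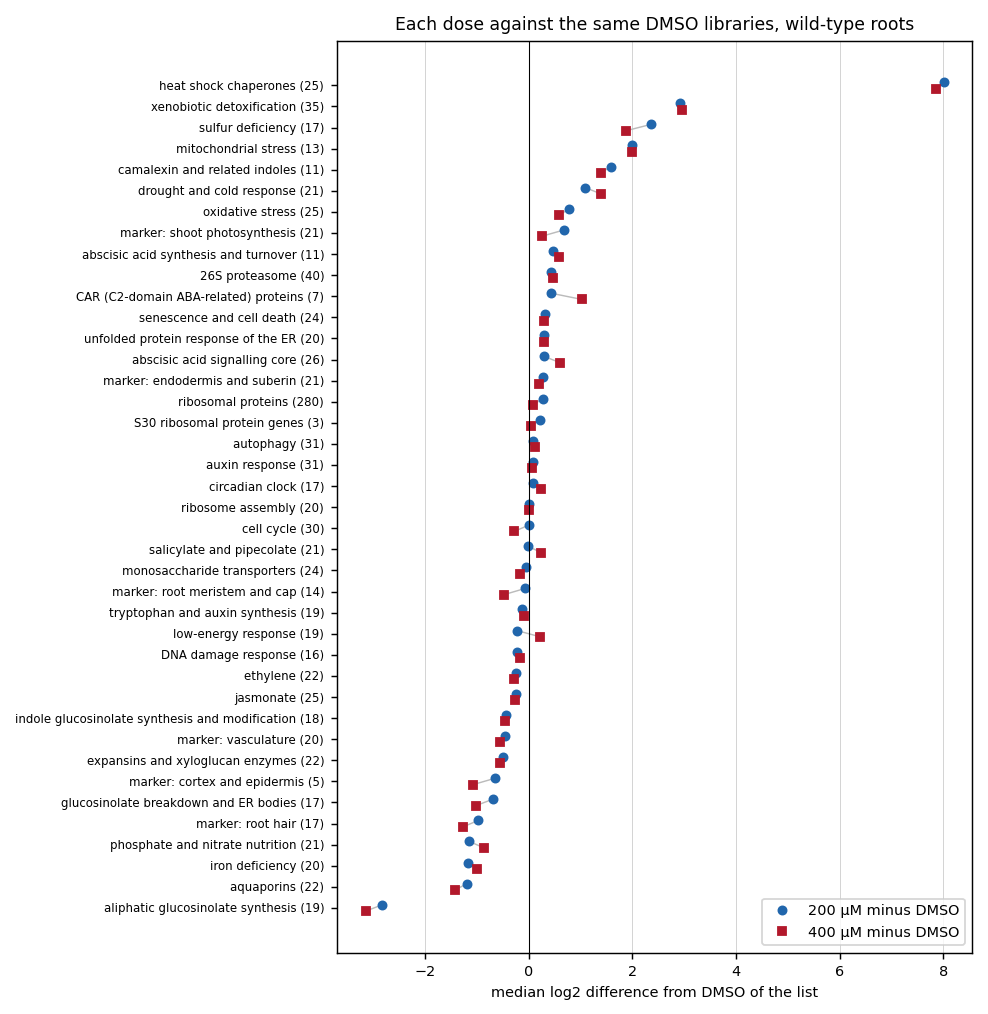
Median log2 difference from DMSO of each gene list (number of measured genes in brackets) in wild-type roots at 200 µM (blue circles) and 400 µM (red squares), both against the same DMSO libraries. Heat shock genes are the highest, at 8.01 and 7.86, and aliphatic glucosinolate genes the lowest, at -2.83 and -3.15.

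The 31 measured auxin response genes had a median dose difference of 0.03, with 17 above 0 and 0 called. TIR1 (AT3G62980), the auxin receptor, averaged 1931 ± 99.9 normalized counts in Col_400 and 1674 ± 367 in Col_200 (log2 difference 0.23, 95% interval -0.08 to 0.54). IAA2 (AT3G23030), a repressor that auxin induces, averaged 1865 ± 116 normalized counts in Col_400 and 1741 ± 250.01 in Col_200 (0.11, -0.20 to 0.41).

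Aliphatic glucosinolate synthesis genes lay far below DMSO, with medians of -2.83 at 200 µM and -3.15 at 400 µM and 15 of 19 called lower at each, against 13.9% of all tested genes at 200 µM and 3680 of 21180 at 400 µM. Between doses 0 of 19 passed, 14 lay below 0, where 48.3% of all tested genes did, and the median was -0.30. That median was -0.0068 without Col_200 replicate 1, -0.17 without Col_400 replicate 5 and -0.65 without Col_200 replicate 5. IMDH3 (AT5G14200), an isopropylmalate dehydrogenase of methionine chain elongation, averaged 451 ± 25.3 normalized counts in Col_400 and 686 ± 180.3 in Col_200 (-0.57, adjusted p = 0.227), against 3658 ± 286 in DMSO. ATIMD3 (AT1G31180), of the same enzyme family, had a difference of -0.28 (adjusted p = 0.491). Of 18 indole glucosinolate genes 13 lay below 0 and 0 passed, with a median of -0.16 (-0.31 without Col_200 replicate 5 and -0.099 without Col_400 replicate 1). GSTF9 (AT2G30860), a phi-class glutathione transferase of that list, averaged 6509.7 ± 602 normalized counts in Col_400 and 9706 ± 2239.7 in Col_200 (-0.55, adjusted p = 0.283). GSTF10 (AT2G30870), its neighbour, had a difference of -0.27 (0.497).

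Some lists lay mostly on one side of 0 although 0 of their genes passed, and single libraries moved many of their medians. All 21 drought and cold response genes lay above 0, where 51.3% of all tested genes lay above and 48.3% below, with a median of 0.45, and 7 had an unadjusted p under 0.05, against 11.4% of all tested genes. The median was 0.27 without Col_200 replicate 5. That library stood apart: its median deviation from the mean of the 6 libraries over this list was -0.62, against 0.07 and -0.05 in the other Col_200 libraries. Over iron deficiency genes it was -0.73, over root hair markers -0.83 and over endodermis markers -0.99. For root hair markers Col_200 replicate 1 lay further off on the other side, at 1.01. ERD14 (AT1G76180), a dehydrin, had 11803, 12234 and 13287 normalized counts in Col_400 replicates 1, 4 and 5, against 10362, 10661 and 7912 in Col_200. All Col_400 libraries were above all Col_200 libraries, with a log2 difference of 0.38 (adjusted p = 0.34). COR47 (AT1G20440), another dehydrin, averaged 17750.5 ± 2079.8 normalized counts in Col_400 and 14593 ± 3674 in Col_200 (0.31, adjusted p = 0.578). Of the 26 abscisic acid signalling genes 17 lay above 0, with a median of 0.17 (0.037 without Col_400 replicate 1 and 0.32 without Col_200 replicate 1). The kinase gene SRK2I (AT5G66880) had a difference of 0.31 (adjusted p = 0.579) and the phosphatase gene ABI1 (AT4G26080) one of 0.27 (0.556).

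Of 20 measured iron deficiency genes 18 lay above 0, with a median of 0.34, or 0.18 without Col_400 replicate 1, 0.25 without Col_200 replicate 5 and 0.59 without Col_200 replicate 1. Against DMSO their medians were -1.17 at 200 µM and -0.99 at 400 µM. HA2 (AT4G30190), a proton pump of the plasma membrane, had 5246, 12756 and 10549 normalized counts in Col_400 replicates 1, 4 and 5, against 5524, 5932 and 3396 in Col_200. Col_400 replicate 1 fell within the Col_200 range (log2 difference 0.89, adjusted p = 0.279). ABCG37 (AT3G53480), which exports coumarins that mobilise iron, had a difference of 0.11 (adjusted p = 0.86).

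Sulfur deficiency genes lay below 0 in 14 of 17 cases, where 48.3% of all tested genes did, with a median of -0.24. That median was -0.13 without Col_400 replicate 1 and -0.37 without Col_400 replicate 5. Against DMSO 15 of 17 were called higher at each dose, against 15% of all tested genes at 200 µM and 18.4% at 400 µM. Their median above DMSO was 2.36 at 200 µM and 1.88 at 400 µM. APR1 (AT4G04610), which reduces activated sulfate, averaged 3618 ± 197 normalized counts in Col_400 and 4947 ± 603 in Col_200 (-0.45, adjusted p = 0.423). APR3 (AT4G21990), of the same family, averaged 8718 ± 1263 normalized counts in Col_400 and 11241 ± 1443 in Col_200 (-0.37, adjusted p = 0.579).

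Cell cycle genes lay below 0 in 26 of 30 cases, with a median of -0.28, and 10 had an unadjusted p under 0.05, against 11.4% of all tested genes. The median was -0.12 without Col_200 replicate 5, and with any other library left out it ran from -0.39 to -0.19. Against DMSO 0 of the 30 were called at 200 µM, where 28.9% of all tested genes were. At 400 µM 8 were called lower (3680 of all 21180 genes were) and 1 higher (18.4% of all genes). TSO2 (AT3G27060), a subunit of ribonucleotide reductase, which makes DNA precursors, had 910.5, 497 and 572 normalized counts in Col_400 replicates 1, 4 and 5, against 888, 1021 and 979 in Col_200. Col_400 replicate 1 lay within the Col_200 range, and Col_400 replicates 4 and 5 lay below it. The log2 difference was -0.59 (adjusted p = 0.212), and -0.90 (adjusted p = 0.0253) without replicate 1 of both groups. RNR1 (AT2G21790), the large subunit, averaged 637 ± 94.2 normalized counts in Col_400 and 802 ± 188 in Col_200 (-0.32, adjusted p = 0.421). The summed level of 14 root meristem and cap markers was 2326 to 2425 normalized counts in Col_400 and 2363 to 2451 in Col_200, and their part in the cell cycle values was not tested.

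Ribosomal protein genes, picked by annotated product name and not sorted by compartment, lay below 0 in 233 of 280 cases. Over all tested genes 48.3% did. Their median was -0.18, and 267 intervals lay within -1 to 1, against 69% over all tested genes. The median was -0.048 without Col_400 replicate 1, -0.065 without Col_200 replicate 5, -0.095 without Col_200 replicate 4 and -0.38 without Col_200 replicate 1. RPP0B (AT3G09200), a protein of the large subunit's stalk, had 23676, 27098 and 30013 normalized counts in Col_400 replicates 1, 4 and 5, against 23684, 43167 and 44923 in Col_200. Replicate 1 was the lowest library at each dose, and Col_400 replicates 4 and 5 lay within the Col_200 range (log2 difference -0.42, adjusted p = 0.466). RPS9B (AT5G15200), of the small subunit, averaged 28046 ± 5408 normalized counts in Col_400 and 32227 ± 8597 in Col_200 (-0.18, adjusted p = 0.781).

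Photosynthesis genes lay below 0 in 19 of 21 cases with a median of -0.41, or -0.16 without replicate 1 of both groups. It was -0.026 without Col_200 replicate 1, whose median deviation from the mean of the 6 libraries was 1.01, and -0.81 without Col_200 replicate 5. Autophagy genes lay above 0 in 26 of 31 cases, with a median of 0.11 (0.02 without Col_400 replicate 1 and 0.27 without Col_200 replicate 1), and salicylate and pipecolate genes in 19 of 21, with a median of 0.34. Low-energy response genes lay above 0 in 14 of 19 cases, with a median of 0.26 (0.12 without Col_400 replicate 5 and 0.43 without Col_400 replicate 1). Among them DIN10 (AT5G20250) had a difference of 0.81 (adjusted p = 0.372) and the glutamate dehydrogenase gene GDH2 (AT5G07440) one of 0.33 (0.585). Of 25 jasmonate genes 15 lay above 0. The repressor gene TIFY3B (AT5G20900) averaged 936 ± 22.2 normalized counts in Col_400 and 669.8 ± 113 in Col_200 (0.50, adjusted p = 0.0881), and TIFY10A (AT1G19180), of the same family, had a difference of 0.43 (0.437).

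**Figure D4:**
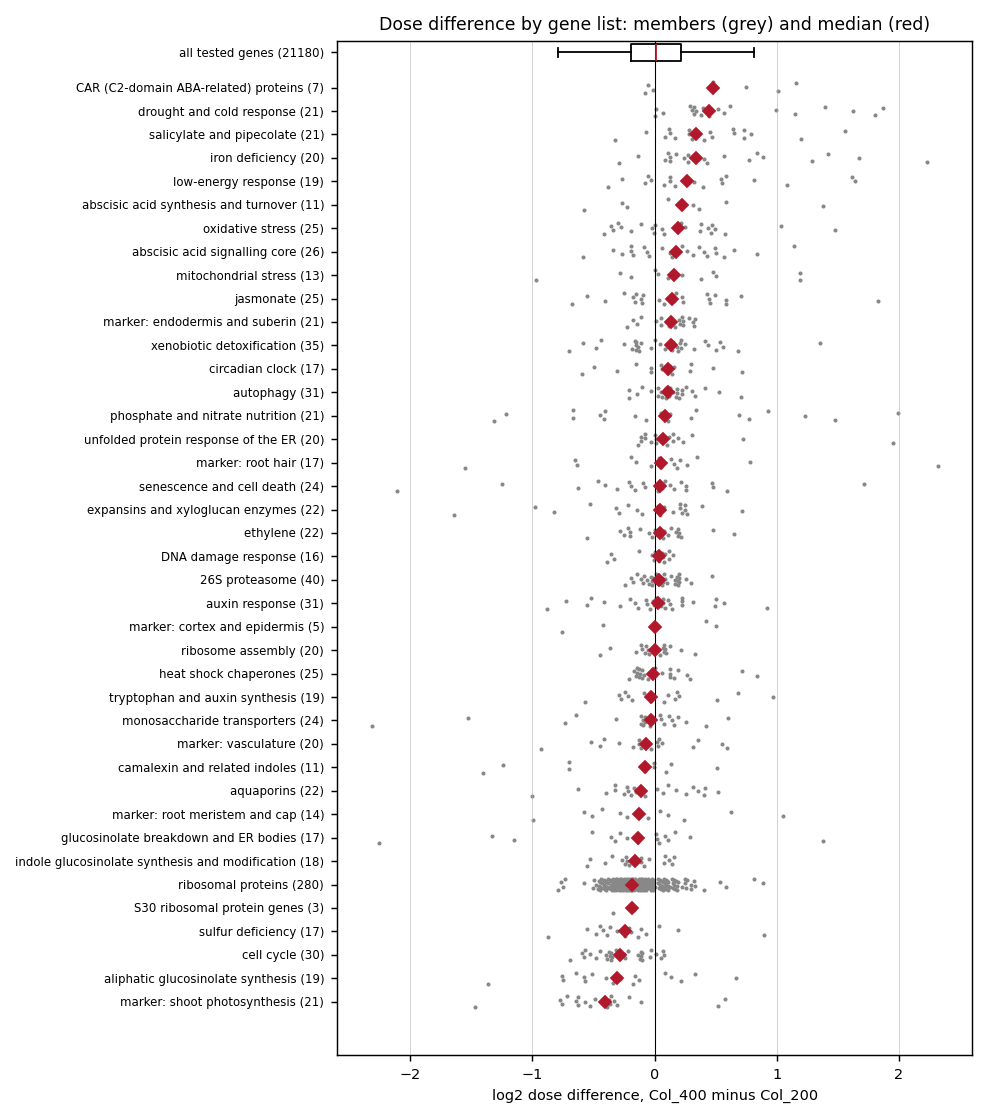
Log2 dose difference (Col_400 minus Col_200) of each measured list member (grey points) with the list's median (red diamond). The box over all 21180 tested genes runs from the lower to the upper quartile, with whiskers to the farthest value within 1.5 box lengths. List medians run from -0.41 for photosynthesis genes (-0.026 without Col_200 replicate 1) to 0.48 for CAR genes (0.14 without Col_200 replicate 5).

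The same dose step in libraries labelled ICT1-2 shares no library with the wild type, but the estimate of each gene's spread is shared. There 1700 genes passed (8.03% of those tested), 1106 higher (5.22%) and 594 lower (2.8%) at 400 µM. With scaling by total reads the split turned round, with 591 higher and 1747 lower, and 1185 genes were called under both scalings. Of the 26 wild-type genes 14 also passed in ICT1-2, all in the same direction, which is 53.8% of the wild-type list and 0.824% of the ICT1-2 list. The sign was the same for 25 of the 26, and for 22 the difference was larger in the wild type, on whose values these genes were chosen. For AT4G17616 the log2 difference was 1.32 in ICT1-2 (adjusted p = 0.000671) and 1.30 in the wild type, and for AT2G36690 it was 1.38 in ICT1-2 (adjusted p = 0.00266) and 1.47 in the wild type. CLE2 fell by 0.87 in ICT1-2 (adjusted p = 0.0183) and by 1.99 in the wild type. CDC45 had a difference of -0.11 in ICT1-2 (adjusted p = 0.864) and -1.27 in the wild type. The gene with the opposite sign, AT2G18245, averaged 179 ± 23.7 normalized counts in ICT1-2_400 and 192 ± 9.51 in ICT1-2_200, against 433 ± 36.5 in Col_400 and 233 ± 43.4 in Col_200.

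Of the 1106 genes higher in ICT1-2_400 than in ICT1-2_200, 927 also lay above 0 in the wild type (51.3% of all tested genes did). The median of the 1106 was 0.20 in the wild type and 0.81 in ICT1-2, on whose values these genes were chosen. Of the 594 genes lower in ICT1-2_400, 434 lay below 0 in the wild type (48.3% of all tested genes did). The median of the 594, also chosen on the ICT1-2 values, was -0.19 in the wild type and -0.93 in ICT1-2. That choice favours larger values in ICT1-2. Over all tested genes the median absolute dose difference was 0.20 in the wild type and 0.26 in ICT1-2. Tested directly, the dose step differed between ICT1-2 and the wild type for 0 of 21180 genes (limma, lowest adjusted p = 0.0811). At an unadjusted p under 0.05 there were 2242 genes (10.6%), 11 of them among the 26. The 26 were chosen on the wild-type difference, which is part of this test, so a raised share among them follows from that choice. With only these 12 libraries in the fit 106 of 21180 genes passed, 96 of them with a more positive step in ICT1-2. Of the 25 heat shock genes 12 were among the 106. In ICT1-2, 20 of the 25 heat shock genes were called higher at 400 µM, against 5.22% of all tested genes. The list's median there was 1.32. The lines' difference for these genes had an unadjusted p under 0.05 in 21 of 25 and a lowest adjusted p of 0.159. Their summed share of reads was 3.14 to 3.997% in ICT1-2_400 and 1.81 to 2.23% in ICT1-2_200, against 2.39 to 2.98% in Col_400 and 2.35 to 2.73% in Col_200.

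**Figure D5:**
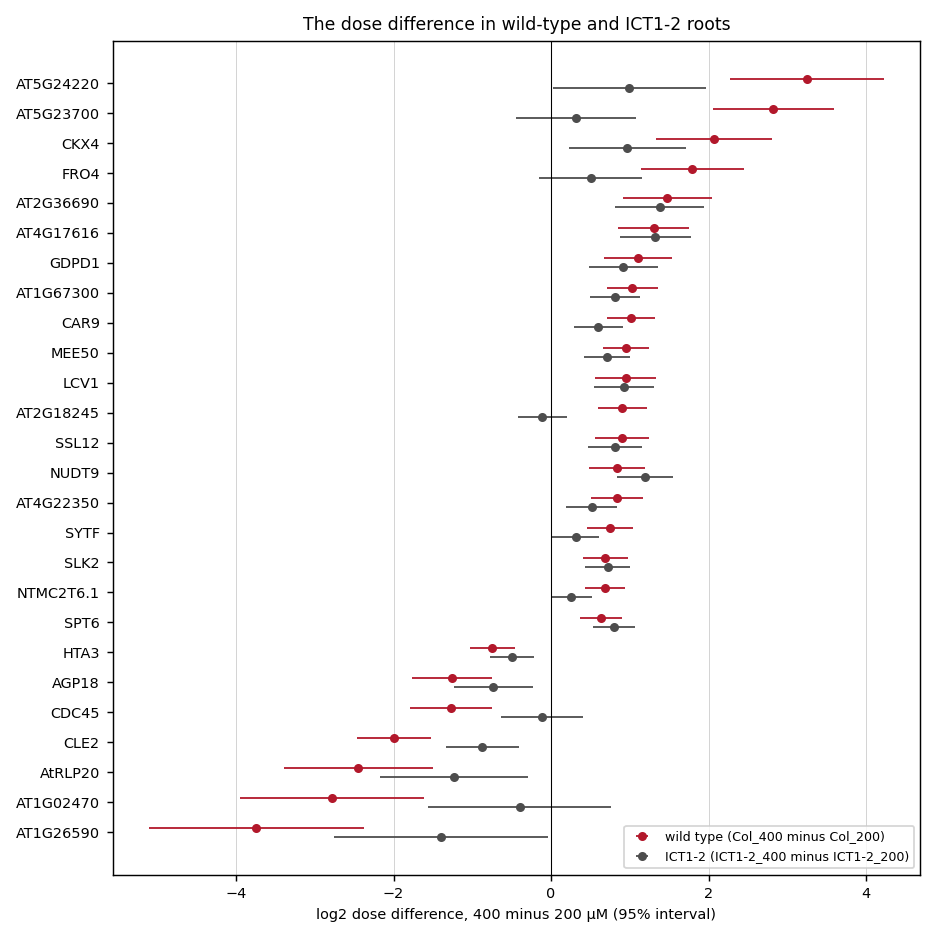
Log2 dose difference (400 minus 200 µM) with its 95% interval for the 26 genes called in the wild type, in wild-type roots (red) and in libraries labelled ICT1-2 (grey). The grey values share the sign of the red ones for 25 of the 26 genes and are nearer to 0 for 22, the genes having been chosen on the red values.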

How the data were processed

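Roots of 10-day-old seedlings were profiled by mRNA sequencing with a kit that keeps no strand. Reads were aligned with TopHat2 2.1.0 to TAIR10, counted with HTSeq 0.6.1 and processed with DESeq2 1.18.1, per the submitters' processing notes. The values used are normalized counts per library, deposited by the authors in packed text cells, which are read counts divided by a size factor. Dividing out the factor gave whole reads (within 0.1) for 100% of values. The authors' deposited table also gives log2 fold changes and adjusted p-values, used only where named. No columns were left unmatched to a sample. ICT1-2_NT replicate 5 was not analysed here, so 26 of 27 libraries entered.

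Of 34262 genes, 28141 had reads and 21180 reached 10 normalized counts in 3 or more libraries. limma 3.58.1 (R 4.3.3) fitted log2(normalized count + 1) with a mean per group over all 26 libraries, a variance trend, and Benjamini-Hochberg adjustment over the 21180 genes, two-sided, at 0.05. The design had planned a quasi-likelihood test if raw counts were held; the table holds normalized counts, so limma was used, with voom on the recovered reads as an alternative. Intervals on read counts are exact, at 95%, and cover counting error only, since the reads carry no molecular identifiers. No pair of replicates agreed within sampling noise. The code was tested on simulated data.

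Genes are named if they passed, if they have the highest mean level among the members of a list (the first 2, or those that passed), if they are among the 10 largest differences that did not pass but whose groups did not overlap (at 5 CPM or more), or if they are among the 10 smallest adjusted p-values that the authors' deposited table calls and limma does not. ATFRO5, HTA5 and AT1G02475 were added as copies or neighbours of genes that passed, after values were seen. For some lists only counts and medians are given. The members and lists were chosen with earlier results of these data known. Positions are from the deposited table, whose starts match RefSeq's for 99.969% of 32548 genes matched by locus tag.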

Additional observations from a re-analysis of the deposited data

How the results depend on the processing

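The number of genes that differed between Col_400 and Col_200 stayed within 1.5 times 26 under TMM scaling (28), total-read scaling (36), no filter on low values (39), a 5 CPM filter (20), pseudocounts of 0.5 (31) and 5 (28), voom (29, with 28 higher, 1 lower and 18 of the 26 kept) and a fit without the wounded libraries (26). It was 0 with only the groups compared in the fit (1058 of 21180 at an unadjusted p under 0.05). It was 15 at an absolute log2 difference over 1, 115 in the authors' deposited table and 271 without replicate 1 of both groups. Leaving out each library gave 7 to 309. The same dose step in ICT1-2 gave 1700 calls, and 735 to 1283 when a library was left out; total-read scaling gave 2338, with 591 higher and 1747 lower. The difference between the lines gave 0 calls, 106 with only the groups compared in the fit, and 0 to 28 when a library was left out. Scaling moved the median of all genes from 0.0096 to 0.0268 (TMM) or 0.0373 (total reads). With a library left out, the differences between doses, none of them called, ran from -0.0276 to 0.28 for ABCG37, from -0.17 to 0.19 for MED37C (-0.11 without replicate 1 of both groups), from -0.26 to 0.0348 for MED37E and from -0.30 to 0.00182 for GSTF8. The cause of these changes was not tested.

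The replicate numbers were not taken as pairing. Same-numbered libraries of the doses had deviation correlations of 0.299 (replicate 1), 0.0384 (replicate 4) and 0.103 (replicate 5). Unlike-numbered libraries had -0.231 to 0.136. Whether same-numbered libraries share an origin was not tested. With the replicate block 38 genes were called between the doses over all libraries, 0 with only the groups compared (1367 at an unadjusted p under 0.05), 890 in ICT1-2 and 0 between the lines (1987 at an unadjusted p under 0.05). Setting replicate 1 against the other numbers as a block, and leaving replicate 1 out, were chosen after seeing the data; the first gave 32. The planned quasi-likelihood and DESeq2 alternatives were not run. voom was the test run on the recovered reads.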
